A study of Mus musculus with 7 samples.

Results

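The replication-dependent histone genes supply the core histones H2A, H2B, H3 and H4 and the linker histone H1 that package newly replicated DNA. Genes were taken as members where the RefSeq symbol followed the cluster naming of these families or where an older name began with Hist1h, Hist2h or Hist3h. Of 21887 protein-coding genes on chromosomes 1 to 19, X and Y, 70 matched. Of these, 66 lay within 200 kb of another match on chromosomes 13, 3 or 11 and are the clustered genes described here: 54 on chromosome 13, 10 on chromosome 3 and 2 on chromosome 11. By family they comprised 6 H1, 18 H2A, 18 H2B, 12 H3 and 12 H4 genes. The other 4, H1f0, H1f7, H1f8 and H1f10, stand alone and are given apart. The symbol pattern found 63 of the clustered genes, and the older names added H2bu2 and H2aw on chromosome 11 and H4bc24, an H2B gene by its older name, on chromosome 13.

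The measurement is of H3K4me1, monomethylation of a lysine near the amino terminus of histone H3 and a mark of enhancers and active genes, by CUT&Tag, in which an antibody directs the transposase Tn5 to marked chromatin. The series has 7 samples of untreated mouse zygotes: 2 H3K4me1 batches with 2 transcriptome samples, and 2 H3K27me3 batches with 1 transcriptome sample. Females received 5 IU of pregnant mare serum gonadotropin and 5 IU of human chorionic gonadotropin 46 to 48 h later, collection is labelled as 23 after it, without a unit, and the zygotes of a batch came from 1 mouse. The cross, B6D2F1/J females of 6 weeks with C57BL6/J males, is stated for the H3K27me3 zygotes and their transcriptome and not for the H3K4me1 zygotes. Only the H3K4me1 fragments were analysed here.

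Both H3K4me1 batches were deposited as 1 pooled table, and the library names, which hold the number 4 or 5, are tied to no batch by the labels. The table is therefore 1 sample with no replicate, no test between samples was made, and libraries are not replicates. Of 16 libraries, 14 had at least 5000 fragments, 3 named 4 and 11 named 5, with 1404305 fragments together and 7106 to 197312 per library. A level is a density of fragments, placed by their midpoints, divided by the density over all autosomes, 5.62 per 10 kb, so that 1 is the autosomal average. Coordinates are those of mm10. Intervals in parentheses are exact 95% Poisson intervals and cover counting error only. As a view of the cell type, 4 of 10 oocyte genes and 4 of 10 cumulus cell genes had an interval above 1, against 29.5% of autosomal protein-coding genes, with median levels of 1.41 and 1.16. In the cumulus list 2 genes had an interval below 1, in the oocyte list none, against 7.17%, and no gene of either was without fragments.

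Most replication-dependent histone genes have no intron, and their mRNAs end in a stem-loop in place of a poly(A) tail. They are transcribed in S phase at nuclear bodies organised by NPAT, and the stem-loop is bound by SLBP. In oocytes and early embryos stored histone mRNA and protein serve the rapid packaging of chromatin after fertilisation.

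The promoters of the members are shown first because their letters and their fragments are both described below. Of the 66 genes, 61 matched a RefSeq promoter entry for GRCm38.p6, the assembly of mm10, and these had 62 promoter windows of 300 bases, from 250 before to 50 after the start. Capitals mark matches, on either strand, to the TATA-box letters TATAAA, to the CCAAT-box letters CCAAT, or to the octamer ATTTGCAT, which is known from H2B promoters; no member window held overlapping matches to different motifs. The sequences run 5′ to 3′ on the strand of the gene. H4c11 had the highest level of all members, H2bc14 had 0 fragments, H2bc8 shares its promoter with H2ac8, H2bc1 is the testis and oocyte H2B gene also called Th2b, and H2bc23 has a window identical in all 300 bases to that of H4bc24.
H4c11 chr13:21734784-21735083 (plus strand): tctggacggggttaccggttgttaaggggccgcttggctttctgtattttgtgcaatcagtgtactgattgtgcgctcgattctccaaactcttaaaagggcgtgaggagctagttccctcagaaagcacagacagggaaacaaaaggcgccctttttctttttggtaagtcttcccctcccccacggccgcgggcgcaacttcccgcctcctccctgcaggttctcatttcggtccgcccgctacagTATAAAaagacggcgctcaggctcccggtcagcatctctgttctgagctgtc
H2bc14 chr13:21721794-21722093 (plus strand): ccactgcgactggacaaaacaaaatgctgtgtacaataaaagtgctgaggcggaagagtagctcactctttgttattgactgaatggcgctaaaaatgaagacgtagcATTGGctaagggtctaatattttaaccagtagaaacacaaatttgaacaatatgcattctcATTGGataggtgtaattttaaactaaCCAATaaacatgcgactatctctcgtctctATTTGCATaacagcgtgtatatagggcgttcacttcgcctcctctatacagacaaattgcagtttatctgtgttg
H2bc8 chr13:23571150-23571449 (plus strand): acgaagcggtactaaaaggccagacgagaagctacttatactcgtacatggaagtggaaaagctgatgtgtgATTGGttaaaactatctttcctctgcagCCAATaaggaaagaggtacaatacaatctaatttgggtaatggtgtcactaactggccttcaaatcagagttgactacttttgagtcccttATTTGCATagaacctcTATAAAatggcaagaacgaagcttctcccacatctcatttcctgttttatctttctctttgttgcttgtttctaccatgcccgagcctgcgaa
H2bc1 chr13:23934107-23934406 (minus strand): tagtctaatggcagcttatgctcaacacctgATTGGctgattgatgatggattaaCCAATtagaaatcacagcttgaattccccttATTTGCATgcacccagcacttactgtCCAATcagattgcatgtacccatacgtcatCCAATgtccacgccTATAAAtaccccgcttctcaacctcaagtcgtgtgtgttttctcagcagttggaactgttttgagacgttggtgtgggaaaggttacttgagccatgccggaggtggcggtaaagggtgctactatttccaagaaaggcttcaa
H2bc23 chr13:21810150-21810449 (minus strand): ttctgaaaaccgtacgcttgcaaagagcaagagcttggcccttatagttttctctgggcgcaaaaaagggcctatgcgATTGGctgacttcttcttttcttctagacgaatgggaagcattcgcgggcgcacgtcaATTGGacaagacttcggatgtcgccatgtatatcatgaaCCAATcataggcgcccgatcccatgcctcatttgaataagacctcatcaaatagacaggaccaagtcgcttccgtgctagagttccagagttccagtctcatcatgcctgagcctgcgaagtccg

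The H4 window of H4c11 has 1 TATAAA match, at the annotated start, and no CCAAT. The H2bc23 window holds CCAAT alone. The H2bc8 and H2bc1 windows hold all 3 motifs, and the H2bc14 window holds CCAAT and the octamer. Over all members, CCAAT was found in 87.1% of windows, TATAAA in 56.5% and the octamer in 22.6%, against 38.1%, 12.7% and 1.67% of the 20085 windows of autosomal protein-coding genes. For non-receptor genes of at most 2 kb in the gene-densest quintile of the genome the shares were 39.2%, 38.0% and 3.01%. For olfactory receptor genes they were 40.7%, 41.1% and 2.55%. TATAAA was thus common in other short genes too, and by histone family it ran from 40% of H3 to 72.7% of H4 windows. The octamer was found in 7 of 17 H2B windows and 7 of 18 H2A windows, and in none of the 6 H1, 10 H3 and 11 H4 windows. Many H2A and H2B windows are the same DNA read on opposite strands, so these are not separate counts. CCAAT was found in every H1, H2A, H2B and H3 window and in 3 of 11 H4 windows. A match is a description of letters and not of a bound factor.

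Histone genes had low H3K4me1. The windows of the 66 genes, each with 2.5 kb on both sides, merged into 23 separate stretches of 279 kb. They held 111 fragments from 13 libraries where 157 would lie at the autosomal mean, a level of 0.708 (0.582 to 0.853). Of the members, 54 had a level below 1 and 12 above 1. No member had an interval above 1, against a background of 29.5% of 20665 autosomal protein-coding genes, 6.28% of 2231 other genes of at most 2 kb and 12.8% of 392 such genes in the gene-densest quintile of the genome that are not chemosensory receptors. The windows of the 60 members with a gene model of at most 1 kb expect 3.02 to 3.32 fragments each, so that even 0 fragments leave an interval that includes 1.

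**Figure D1:**
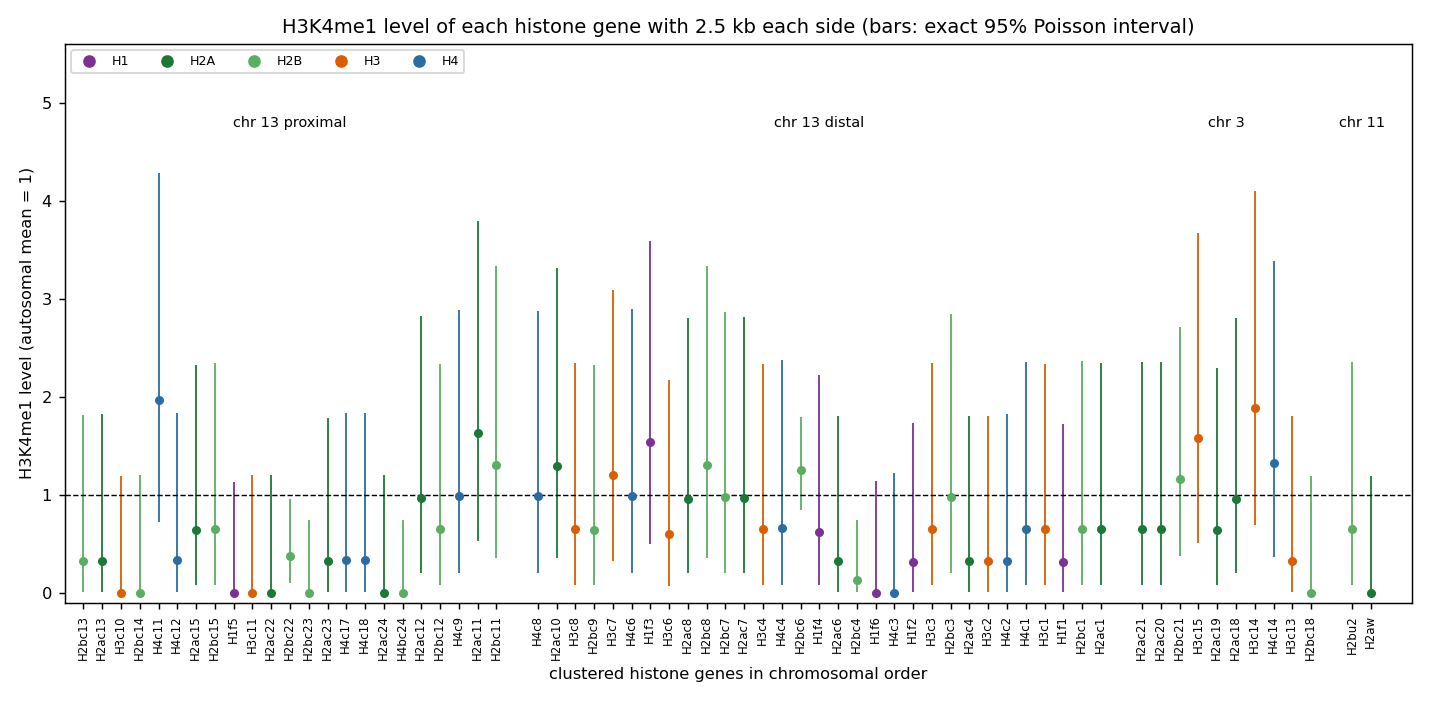
Level of H3K4me1 fragments (autosomal mean = 1, dashed line) of the 66 clustered histone genes with 2.5 kb each side, in chromosomal order within each run and coloured by family; bars are exact 95% Poisson intervals. Points range from 0 to 1.97, no bar lies wholly above 1, and 8 of the 12 points at 0 are in the proximal chromosome 13 run.

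Counts per member were small. By number of fragments, 12 genes had 0, 14 had 1, 18 had 2, 9 had 3, 6 had 4, 4 had 5 and 2 had 6, and 1 long gene model, H2bc6, had 30. The median level was 0.647, and 0.654 with the genes at 0 set to the level that 3 fragments would give. The median over all autosomal protein-coding genes was 1.21, that of other genes of at most 2 kb was 0.632, and that of the non-receptor genes of this length in the densest quintile was 1.06. A single fragment moves the level of such a short gene far, so the merged windows carry the comparison.

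The 8 highest members came from all 5 families. H4c11 (chromosome 13, 21735034 to 21735456), an H4 gene, had 3 fragments in library 5-4, 2 in 5-9 and 1 in 5-2, a level of 1.97 (0.722 to 4.28). H3c14 (chromosome 3, 96246685 to 96247348), an H3 gene, had 3 in 5-4, 2 in 4-4 and 1 in 5-1, a level of 1.88 (0.692 to 4.10). The H2A gene H2ac11 (chromosome 13, 22042478 to 22042949) had 1 fragment in each of 5 libraries, a level of 1.63 (0.528 to 3.79). In all 3 the other libraries had none, and the intervals include 1. The H3 gene H3c15 had 1.57 (0.511 to 3.68), the linker gene H1f3 had 1.54 (0.5001 to 3.59), and the H4 gene H4c14 had 1.32 (0.360 to 3.38). The H2B genes H2bc11 and H2bc8 had 1.30 (0.355 to 3.34) and 1.30 (0.355 to 3.33). The window of H2bc11 overlaps that of H2ac11, so that both can count the same fragments.

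At the low end, 12 members had 0 fragments, which is 18.2% of members against 3.06% of all autosomal protein-coding genes, 15.7% of other genes of at most 2 kb and 6.63% of the non-receptor ones in the densest quintile. They were the linker genes H1f5 and H1f6, the H2A genes H2ac22, H2ac24 and H2aw, the H2B genes H2bc14, H2bc18, H2bc23 and H4bc24, the H3 genes H3c10 and H3c11, and the H4 gene H4c3. The upper ends of their intervals run from 0.747 at the long models of H2bc23 and H4bc24 to 1.22 at H4c3. Of the 12, 8 lie in the proximal chromosome 13 run. An interval below 1 was found for 4 members, or 6.06%, against 7.17% of all autosomal protein-coding genes. These were H2bc22 with 0.373 (0.102 to 0.955), H2bc4 with 0.134 (0.00339 to 0.746), and H2bc23 and H4bc24 with 0 fragments. All 4 are H2B genes with long gene models, which expect more fragments. Of other genes of at most 2 kb, 0.807% had an interval below 1.

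Those 60 members, with models of 375 to 911 bp, gave 76 fragments and a level of 0.637 (0.502 to 0.797), so the level was as low without the long models. Among the 6 long models, H2bc6 (chromosome 13, 23583670 to 23621124) was the only one with many fragments, 30 from 11 libraries, at most 6 per library and a level of 1.26 (0.848 to 1.79). H2bc21 on chromosome 3, the sixth, had 1.16 (0.377 to 2.71).

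By family, the merged windows had a level of 0.463 (0.212 to 0.880) for H1, 0.597 (0.406 to 0.848) for H2A, 0.679 (0.520 to 0.870) for H2B, 0.716 (0.472 to 1.04) for H3 and 0.758 (0.4998 to 1.10) for H4. All 5 lay below 1, and all 5 intervals overlap, so no order of the families can be read. The families also share DNA: from 49.0% of the H4 bases to 86.8% of the H2A bases lie in windows of another family. Within H1, levels ranged from 0 at H1f5 and H1f6 to 1.54 at H1f3. Within H2A they ranged from 0 to 1.63 at H2ac11, and within H2B from 0 to 1.30 at H2bc11. H3 ranged from 0 to 1.88 at H3c14, and H4 from 0 at H4c3 to 1.97 at H4c11.

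The members known from germ cells had intervals that include 1. H1f6, the testis linker histone H1t, had 0 fragments (upper end of the interval 1.14), and H1f1 had 1 fragment and a level of 0.310 (0.00784 to 1.73). H2bc1 and H2ac1, known as Th2b and Th2a and present in testis and in the mouse oocyte and early embryo, are a divergent pair and had 2 fragments and levels of 0.655 (0.0793 to 2.37) and 0.650 (0.0787 to 2.35). Their merged window had 2 fragments from 2 libraries in all.

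Outside the clusters, the linker gene H1f8 (chromosome 6, 115944931 to 115950242), which encodes the oocyte linker histone, had 16 fragments from 10 libraries. The 6 clustered H1 genes together had a level of 0.463 (0.212 to 0.880), against 2.76 (1.58 to 4.48) at H1f8, and the intervals do not overlap. The other lone H1 genes had 3 fragments each: H1f0 had 0.732 (0.151 to 2.14), the spermatid gene H1f7 had 0.844 (0.174 to 2.47) and H1f10 had 0.881 (0.182 to 2.57). Among 14 of 16 lone and variant histone genes found, 3 had an interval above 1 and 1 below, shares near or under the 29.5% and 7.17% of all autosomal protein-coding genes. Their merged windows had a level of 1.29 (1.10 to 1.499), an interval that includes the 1.17 of the merged windows of all autosomal protein-coding genes. The replacement variant gene H2az2 had 1.68 (1.04 to 2.56) and Macroh2a2 had 1.54 (1.12 to 2.06). The other H2A.Z gene, H2az1, had no fragment (upper end of the interval 0.883).

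The clustered histone genes were lower than genes whose products act on histone mRNA or carry histones, and also lower than all autosomal protein-coding genes. The merged windows of the latter had a level of 1.17 (1.168 to 1.173). Of 16 factors of histone gene expression and mRNA processing, 3 had an interval above 1 and none below, against the background of 29.5% above among autosomal protein-coding genes. The merged windows of the 16 had a level of 1.22 (1.09 to 1.35). This interval lies above that of the histone genes and includes the level of all autosomal protein-coding genes. Slbp, which encodes the stem-loop binding protein, had 2.54 (1.64 to 3.75), and the 3′ end processing genes Sympk and Cpsf3 had 2.22 (1.61 to 2.98) and 1.95 (1.37 to 2.69). Npat, the coactivator of histone gene transcription, had 0.814 (0.497 to 1.26). Of 10 histone chaperone genes, 6 had an interval above 1 and none below, with a merged level of 1.79 (1.60 to 2.00). These were the CENP-A chaperone gene Hjurp with 4.86 (3.75 to 6.20), Chaf1a of the replication-coupled assembly factor CAF-1 with 2.29 (1.65 to 3.10), the egg chaperone gene Npm2 with 2.19 (1.40 to 3.26), Asf1b with 1.82 (1.11 to 2.82), Nap1l1 with 1.70 (1.14 to 2.45) and the H3.3 chaperone gene Hira with 1.55 (1.24 to 1.92). These genes are longer than the clustered histone genes, so that an interval above 1 is reached more easily.

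All 66 members lay in the gene-densest quintile of the autosomes, which begins above 32 other protein-coding genes within 500 kb, with 39 to 51 such neighbours. This place rests on the histone genes themselves. Without them the distal run of chromosome 13 had 11 to 21 neighbours, the proximal run 25 to 29, chromosome 3 had 30 to 31 and chromosome 11 had 43 to 44, so that only the 2 members on chromosome 11 would stay in the quintile. The median without histone genes was 25, against 16 for all autosomal protein-coding genes, and the quintile is thus a loose match. The histone genes had a level of 0.708 (0.582 to 0.853), against 1.56 (1.55 to 1.57) for the other genes of this quintile and 1.26 (1.20 to 1.32) for those of at most 2 kb that are not receptors, without overlap. Genes of at most 2 kb with the receptors included lay closer, at 0.893 (0.871 to 0.914) over all autosomes and 0.898 (0.866 to 0.931) in the quintile, and these intervals also lie above that of the histone genes. Olfactory receptor genes, another family of short genes in tandem clusters, had 0.693 (0.668 to 0.719), within the interval of the histone genes. Vomeronasal type 1 receptor genes, many of which lie between the histone runs of chromosome 13, had 0.505 (0.459 to 0.555), below it. An interval above 1 was found for 2.81% of the olfactory receptor genes, and 0 fragments for 16.3% of them and for 31.7% of the vomeronasal ones.

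**Figure D2:**
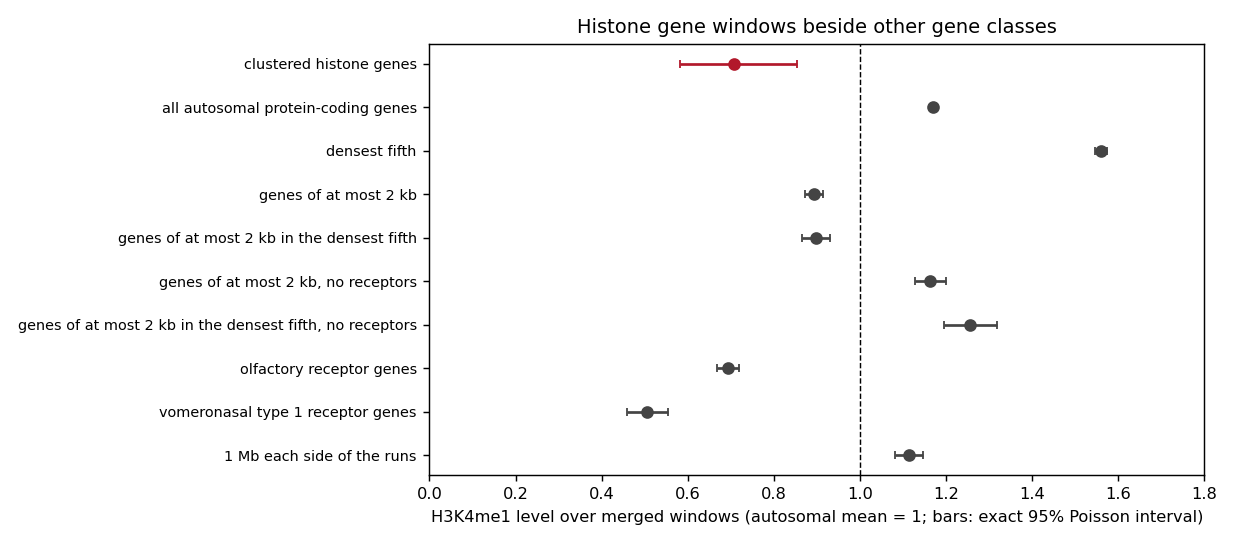
Level of H3K4me1 fragments over merged gene windows (autosomal mean = 1, dashed line) of the clustered histone genes, 8 gene classes and the 1 Mb on each side of the runs, with exact 95% Poisson intervals. The histone genes, at 0.708, lie beside the olfactory receptor genes, at 0.693, and left of the non-receptor genes of at most 2 kb in the densest quintile, at 1.26.

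The members form 4 runs. The proximal run of chromosome 13 (21713211 to 22046158, 23 members) had a level of 0.625 (0.517 to 0.749), and the distal run (23528544 to 23937413, 31 members) had 0.822 (0.709 to 0.948). The run of chromosome 3 (96217385 to 96272692, 10 members) had 1.19 (0.838 to 1.64), and that of chromosome 11 (58946411 to 58957692, 2 members) had 2 fragments and a level of 0.315 (0.0382 to 1.14). The chromosome 3 interval lies above that of the proximal chromosome 13 run in the pooled libraries. The separation ends in the libraries named 5 alone, with 0.900 (0.571 to 1.35) on chromosome 3 and 0.637 (0.517 to 0.777) in the proximal run. It also ends without library 4-4, 4-5 or 5-6, where chromosome 3 had 1.09 (0.747 to 1.54), 0.972 (0.646 to 1.40) and 1.13 (0.770 to 1.61). The largest gap kept within a run was 198 kb, between H4bc24 and H2ac12, and the one gap left out, between H2bc11 and H4c8, was 1487 kb.

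Beside their own surroundings, histone windows were lower in all 4 runs, with intervals apart in 1 of them. In the proximal chromosome 13 run they had a level of 0.504 (0.326 to 0.744), against 0.721 (0.672 to 0.772) in the 1 Mb on each side. In the distal run they had 0.772 (0.593 to 0.988), against 0.971 (0.915 to 1.03). On chromosome 3 they had 1.08 (0.670 to 1.65), against 1.22 (1.15 to 1.28). On chromosome 11 they had 0.324 (0.0393 to 1.17), against 1.43 (1.36 to 1.502), the only intervals that did not overlap, and this value rests on 2 fragments. The surroundings of both chromosome 13 runs thus themselves had levels below 1, in the proximal run with its interval. Pooled over the runs, histone windows had 0.708 (0.582 to 0.853), against 1.11 (1.08 to 1.15) in the 1 Mb on each side. The rest of the runs had 0.786 (0.689 to 0.894), an interval that overlaps that of the windows. This rest had 0.669 (0.539 to 0.820) in the proximal and 0.850 (0.708 to 1.01) in the distal run of chromosome 13, again with overlap. The surroundings count each run about equally, while 83.7% of the window DNA is on chromosome 13. Weighted by the window length of each run, the surroundings had 0.940, and the histone windows stood at 0.753 (0.619 to 0.907) of this, with the interval for the count of the windows alone.

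Within the proximal run, the histone-rich first 127 kb had the lower level. These 127 kb hold copies with identical or near-identical promoter windows, H2bc23 with H4bc24 and H4c17 with H4c18. The part of such copies in the low level was not tested. From H2bc13 to H4bc24 (21713211 to 21840030), 18 members and their gaps held 36 fragments from 12 libraries, a level of 0.505 (0.354 to 0.699). The 5 members at its far end, H2ac12, H2bc12, H4c9, H2ac11 and H2bc11, together had 9 fragments from 7 libraries and a level of 1.18 (0.541 to 2.25). The intervals of both overlap. Between them the run holds the zinc finger gene Zfp184 with 1.20 (0.657 to 2.02), Pom121l2 with 0.709 (0.230 to 1.65) and the thymus protease gene Prss16 with 1.13 (0.489 to 2.23). The run also holds 31 tRNA genes. With 500 bp on each side, the 32 tRNA genes of both chromosome 13 runs had 10 fragments and a level of 0.541 (0.260 to 0.996), against 0.823 (0.704 to 0.956) over 391 autosomal tRNA genes, with overlapping intervals.

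Of the 23 merged stretches, 5 had an interval below 1 and 0 had one above 1. Windows of the other autosomal protein-coding genes, merged in the same way, gave 7943 stretches of the same range of length, 5.38 to 46.0 kb, of which 7.11% had an interval below 1 and 20.3% above 1. These had a median length of 15.5 kb, and the histone stretches one of 8.85 kb. The 5 low stretches hold 26 of the members. The longest of the 5 was that of H1f5, H3c11, H2ac22, H2bc22, H2bc23, H2ac23 and H4c17 (21777332 to 21814650), with 5 fragments from 5 libraries and a level of 0.238 (0.0774 to 0.556). In the distal run, the stretch of H2ac6, H2bc4, H1f6 and H4c3 (23680973 to 23700958) had 2 fragments, both of 1 library, and a level of 0.178 (0.0216 to 0.643), and the 8 genes from H3c3 to H1f1 (23742542 to 23766912) had 6 fragments and 0.438 (0.161 to 0.953). The other 2, both in the proximal run, had 1 fragment each, with levels of 0.151 (0.00381 to 0.839) for H2bc13, H2ac13, H3c10 and H2bc14 and 0.166 (0.00419 to 0.923) for H4c18, H2ac24 and H4bc24. Members of all 5 families occur in these stretches.

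The 10 kb bins show where the remaining fragments lay. The 4 runs touched 85 bins with a median of 4 fragments, against 5 over 240328 autosomal bins. An interval below 1, which means at most 1 fragment, was found for 13 of the 85 bins, or 15.3%, against a background of 11.6%, a share near the background. Bins with a histone gene had it in 8 of 37, or 21.6%, and in the proximal run in 5 of 12. There were 0 fragments in 3 of the 85 bins, against 4.05% of autosomal bins, a share near the background. All 3 held histone genes of the proximal run. An interval above 1 was found in 3 of the 85 bins, against a background of 7.91%. They were the bin of H2ac21, H2ac20 and H2bc21 on chromosome 3, with 13 fragments from 9 libraries, a bin inside the long H2bc6 model, with 12 from 6, and the bin at Trim38, with 13 from 9. Trim38, an E3 ligase gene between H1f1 and H2bc1, had a level of 2.15 (1.35 to 3.25) as a gene, above 1, and Slc17a3, a transporter gene beyond it, had 0.494 (0.213 to 0.974), below 1. All 10 other protein-coding genes that overlap the runs together had 0.925 (0.758 to 1.12).

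**Figure D3:**
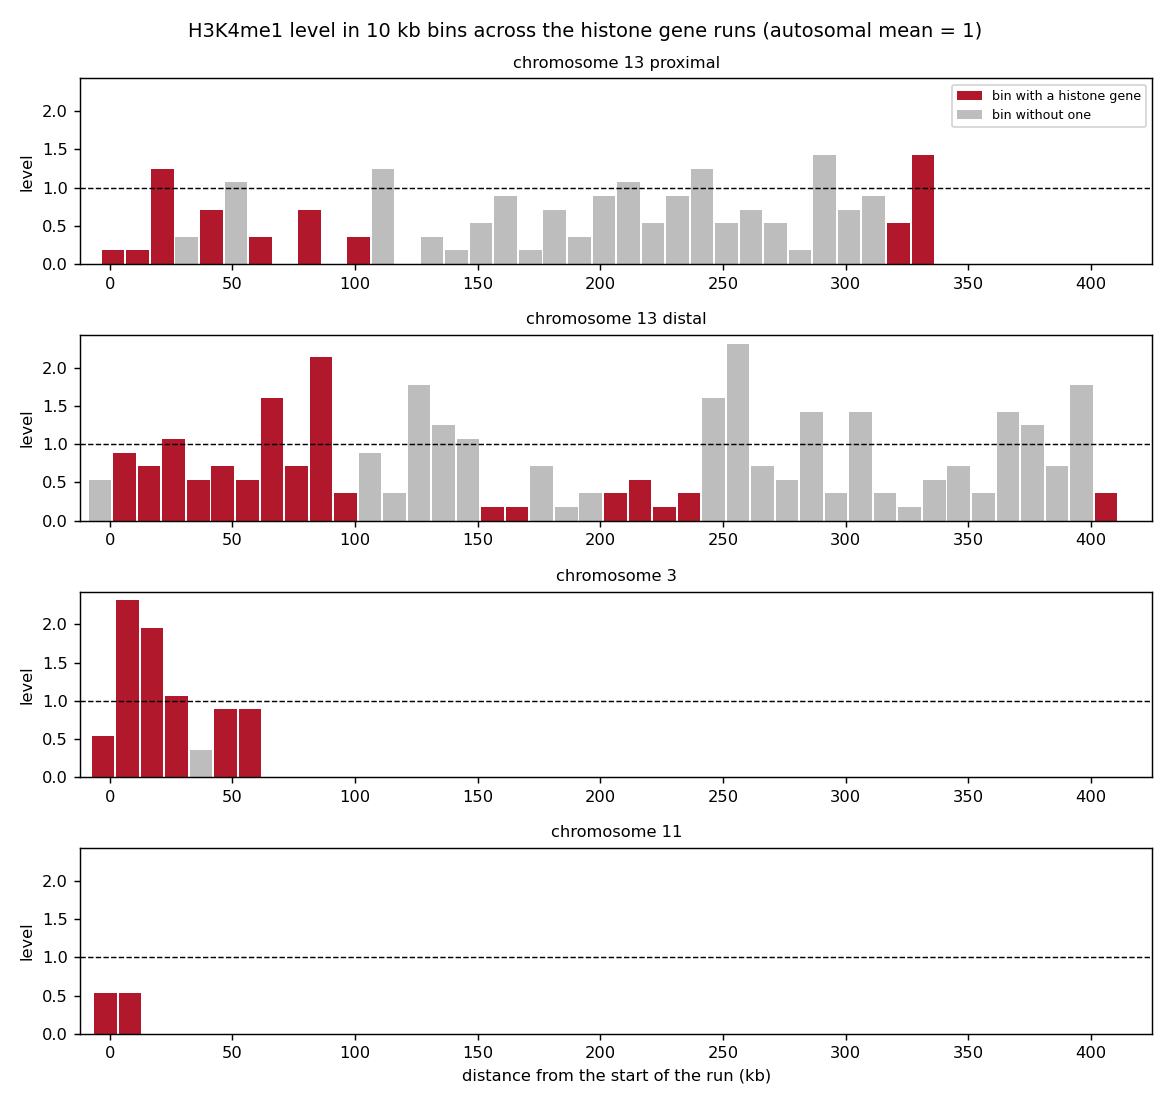
Level of H3K4me1 fragments in 10 kb bins (autosomal mean = 1, dashed line) along the 4 histone gene runs, by distance in kb from the start of each run; red bins hold a histone gene and grey bins do not. Red bins of the proximal chromosome 13 run reach 0 in 3 places, and the tallest bins, with 13 fragments each, are a red one on chromosome 3 and a grey one at Trim38 in the distal run.

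Close to the genes no peak was seen. In the 60 short gene models, the gene bodies had 10 fragments and a level of 0.567 (0.272 to 1.04), against 1.24 (1.16 to 1.33) in 1014 other genes of at most 2 kb that are not receptors. At up to 500 bp from a histone gene the level was 0.457 (0.243 to 0.782), against 1.12 (1.04 to 1.21), and at 1 to 2.5 kb it was 0.714 (0.503 to 0.984), against 1.18 (1.12 to 1.23). At 2.5 to 5 kb it was 0.417 (0.261 to 0.631), against 1.19 (1.14 to 1.23). Farther out, at 5 to 10 kb, the histone value was 0.903 (0.707 to 1.14), against 1.12 (1.09 to 1.15), and at 50 to 100 kb it was 0.963 (0.858 to 1.08), against 1.24 (1.23 to 1.25). The histone values thus lay lower at every distance, with overlapping intervals at 0.5 to 1 kb and at 5 to 10 kb.

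**Figure D4:**
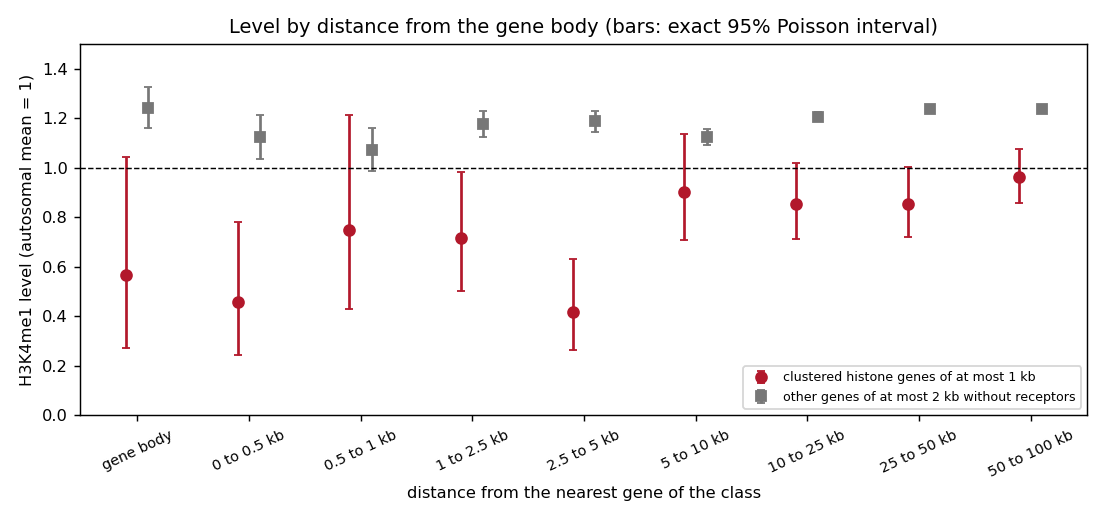
Level of H3K4me1 fragments (autosomal mean = 1, dashed line) in the gene body and in steps of distance from the nearest gene, for 60 clustered histone genes of at most 1 kb and 1014 other non-receptor genes of at most 2 kb; bars are exact 95% Poisson intervals. Histone points run from 0.417 to 0.963 and those of the other genes from 1.07 to 1.24.

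Promoter windows were examined at a finer scale. Since divergent pairs share DNA, overlapping windows were merged, which left 52 from the 62 of the members. Of these, 8 were touched by a fragment, or 15.4% (Clopper-Pearson interval 6.88% to 28.1%), against 31.9% of 18228 merged windows of autosomal protein-coding genes. The share was 34.5% (32.9% to 36.1%) in the densest quintile, an interval that does not overlap that of the histone windows. It was 33% (28.0% to 38.4%) for the non-receptor genes of at most 2 kb there and 20.7% (18.2% to 23.5%) for olfactory receptor genes, and both of these intervals overlap that of the histone windows. By family and before merging, 3 of 11 H4 windows were touched, those of H4c11, H4c9 and H4c1, as were 4 of 17 H2B windows, 1 of 18 H2A windows, 1 of 10 H3 windows and 0 of 6 H1 windows. No window was touched by more than 1 fragment. The promoter of H4c11 shown above is thus one of the few with a fragment, and those of H2bc14, H2bc8, H2bc1 and H2bc23 had none.

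Divergent pairs share 1 promoter between an H2A and an H2B gene. Among members with a known strand, 10 such pairs lay head to head with 163 to 280 bp between them, all on chromosome 13. One fragment touched 1 of these 10 gaps, that between H2bc7 and H2ac7. With 2.5 kb around the gaps, the pairs had 17 fragments and a level of 0.606 (0.353 to 0.970). The highest was H2ac11/H2bc11 with 4 fragments and 1.36 (0.369 to 3.47), and H2ac22/H2bc22 and H2ac24/H4bc24 had 0. Members without a promoter entry had no strand and could not be placed in pairs. Among them, H2bc21 on chromosome 3 starts at 96221072, close to the end of the minus-strand gene H2ac20 at 96220880. H2bc4 on chromosome 13 starts at 23684199, close to the end of the minus-strand gene H2ac6 at 23683959. The count, place and level of the pairs therefore leave these out.

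Reads from near-identical copies may be assigned to either copy or to none, and how the submitters treated them is not given in the sources used here. Promoter windows were compared in 1891 pairs, with a median identity of 53.7%. Besides the identical H2bc23 and H4bc24, those of H4c17 and H4c18 were 99.3% identical, H3c15 and H3c14 94.7% and H4c11 and H4c12 91.7%. The 12 members whose window was at least 80% identical to that of another had a level of 0.793 (0.503 to 1.19). Of these, 3, H4c11, H3c14 and H3c15, had levels above 1, and 2, the identical H2bc23 and H4bc24, had 0 fragments. H4c17 and H4c18, the next most identical, had 1 fragment each. The DNA of the other 54 members had 0.689 (0.552 to 0.848). Since windows were aligned from end to end, copies with a shifted start stay among these. The H2ac24 window, for example, repeats much of that of H2ac23. Coding sequences were not compared, and their part in the low values was not tested. At most 2 fragments of 1 library lay over the same base in the histone windows.

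The low level was seen in most libraries. Of the 14 libraries, 12 had a level below 1 in the histone windows, with a lowest value of 0 in the shallow library 5-11, a median of 0.672 and a highest of 1.21 in library 4-4. The interval lay below 1 in 2 libraries, 5-5 with 0.339 (0.0925 to 0.869) and 5-10 with 0.319 (0.104 to 0.745), and above 1 in none. In 13 of 14 libraries the histone windows were lower than the 1 Mb on each side, with library 5-9 as the exception, at 1.05 (0.339 to 2.44) against 0.826 in the surroundings. In library 4-4 both values were nearly equal, at 1.21 and 1.22. The surroundings per library count each run about equally. Weighting by window length, which lowers the pooled surroundings from 1.11 to 0.940, was not done per library.

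**Figure D5:**
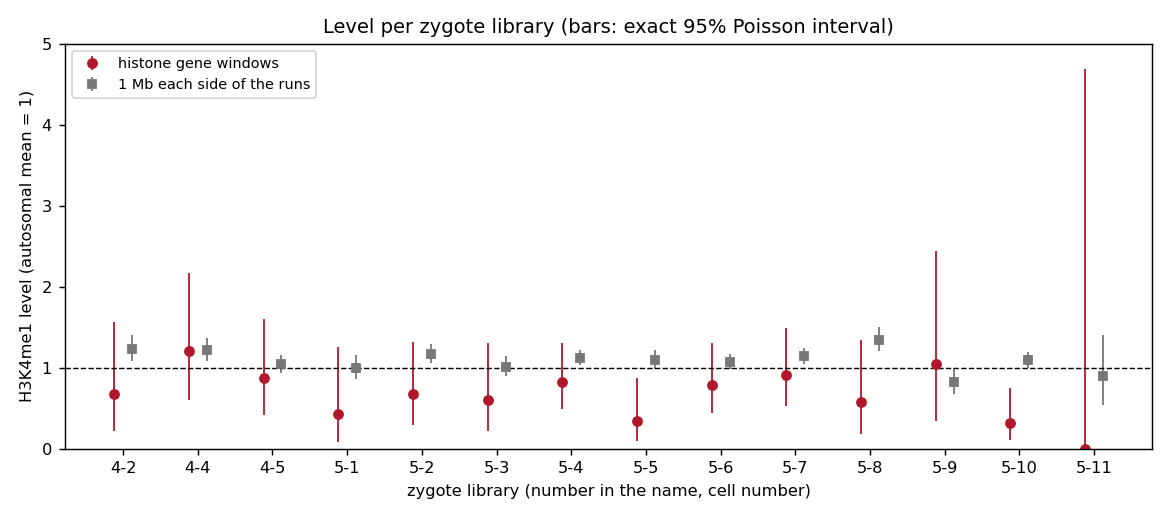
Level of H3K4me1 fragments (autosomal mean = 1, dashed line) in each of the 14 zygote libraries, in the merged histone gene windows (red circles) and in the 1 Mb on each side of the runs (grey squares); bars are exact 95% Poisson intervals. Red points lie below grey ones in all libraries except 5-9, and the bar of the shallow library 5-11 reaches 4.69.

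The libraries named 4 and named 5 differed on chromosome 3. In the 3 libraries named 4, the whole run there had 14 fragments and a level of 2.53 (1.38 to 4.24), and in the 11 named 5 it had 23 fragments and 0.900 (0.571 to 1.35), with intervals that do not overlap. Of the 14 fragments, 9 came from library 4-5, 5 from 4-4 and 0 from 4-2, so the set named 4 is itself uneven. Over all histone windows the 2 sets had 0.930 (0.608 to 1.36) and 0.660 (0.527 to 0.816), with overlapping intervals, as had the proximal run with 0.570 (0.343 to 0.890) and 0.637 (0.517 to 0.777). The distal run had 1.17 (0.864 to 1.55) and 0.747 (0.629 to 0.881), again with overlap. Of the 111 fragments of the histone windows, 85 are of the set named 5, and in the set named 4 alone the interval of the pooled windows includes 1. Of the 4 runs, only the proximal run lay with its interval below 1 in both sets.

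Fragments at histone genes had lengths close to those of all fragments. Under 150 bp lay 9.91% (5.05% to 17.0%) of the 111 fragments, 39.6% (30.5% to 49.4%) were longer but under 300 bp, and 50.5% (40.8% to 60.1%) had 300 bp or more. The shares over all autosomal fragments were 8.39%, 37.3% and 54.3%, each within the interval of the histone windows. The median length was 300 bp at histone genes and 322 bp over the autosomes.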

How the data were processed

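H3K4me1 CUT&Tag fragments of mouse zygotes were taken as the authors deposited them, 1 fragment per line with a count of 1, and midpoints were then counted in each region. The fragment start and end are positions on mm10, per the submitters' processing notes, and have no other unit; aligner, duplicate removal, filters and Tn5 shift: not given in the sources used here. Genes, strands and promoter sequences came from RefSeq for GRCm38.p6. A library was kept when chromosomes 1 to 19, X and Y held 5000 or more of its fragments, and all kept libraries were pooled. Chromosome lengths for the autosomal mean run from the first to the last fragment, and unsequenced or unmappable bases were not removed. Cutting by Tn5 away from the mark was not measured in a control and may be part of every level. Intervals are exact Poisson (levels) or Clopper-Pearson (shares) at 95% (scipy 1.17.1, pandas 2.3.3, Python 3.11.15), and take in counting error alone: without molecular identifiers, amplified reads cannot be taken as separate molecules. Promoters were aligned in pairs from end to end with Biopython 1.88. The interval code was tested on simulated data.

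With 1 pooled sample there was no test and no p-value. Genes named are the 8 highest and the lowest members, the extremes of each family, the germ cell and lone genes, and the called genes of the other lists; the merged stretches, bins, Npat, H2bc6, H2bc21, H2bc7 and H2ac7 and the neighbouring genes were named after their values were seen, and the non-receptor classes, the split of the proximal run, the merging of promoter windows and the weighted surroundings were chosen after seeing the data. The members and lists were chosen with earlier results of these data known. Other windows, library filters and weights, fragment placement and reference levels were tried as alternatives.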

Additional observations from a re-analysis of the deposited data

How the results depend on the processing

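Leaving out each library in turn gave 0.677 to 0.751 for the merged histone windows, 0.565 to 0.667 for the proximal and 0.785 to 0.856 for the distal run of chromosome 13, 0.972 to 1.29 for chromosome 3, and 0 members with an interval above 1 each time. The median over members ranged from 0.517 to 0.727. It stayed within the limits of the reported median, 0.329 to 0.651, in only 5 of the 14 cases. These limits are the levels of single members, H4c18 and H2bu2, on either side of the median, and not a Poisson interval. They count members with overlapping windows as separate. The chromosome 11 run, with 2 fragments, gave 0.163 without library 5-9, 0.167 without 5-8 and up to 0.366 otherwise. In libraries named 4 alone, the merged windows had 0.930, the median was 0, 2 members (H3c7 and H4c14) had an interval above 1, and the distal, chromosome 3 and chromosome 11 runs had 1.17, 2.53 and 0; the cause was not tested. The median was also 0 over gene bodies alone, 0.670 with at most 1 fragment per library in 100 bp and 0.698 with fragments of 150 bp or more; the merged windows had 0.772, 0.721 and 0.696 there. H2A windows with 1 kb each side had 0.371. With bins of 5 kb no bin can have an interval below 1 (0%), and with 20 kb 22.7% of run bins had one, against 13.3% of all autosomal bins. The other values from other windows, library filters, equal weights, both fragment ends, a local reference, libraries named 5, or, chosen after seeing the data, shorter gene models, surroundings weighted by window length or no near-identical promoters stayed within the intervals of the reported values, and a 99% interval also left 0 members above 1; 173 values in all stayed within these limits and 20 did not. With libraries weighted equally no count of intervals can be given. No paired analysis was possible because the columns carry no batch number and no comparison between groups was made. At about 3 fragments per window, single genes cannot be ranked, and differences between families were not detectable at this depth.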
